A study of Mus musculus with 10 samples.

Results

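Pituicytes, the glial cells of the posterior lobe of the pituitary, were looked for among single-cell RNA libraries of dissociated mouse pituitaries. Of 22325 barcodes kept from 10 libraries, 85 were taken as pituicyte barcodes, 0.381% of the total. They were chosen by 6 genes: a barcode had to hold a UMI (a counted mRNA molecule) of at least 2 of Rax, Scn7a, Col25a1, Nkx2-1, Cldn10 and Col13a1. It also had to hold no UMI of Gnrhr, Ghrhr, C1qa, C1qb or Pecam1, which are genes of gonadotrope, somatotrope, macrophage and endothelial cells. The values of these 11 genes therefore selected the barcodes and are given only as a description, and every test leaves them out.

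The mice were CD1, though the study's methods give this strain for its purchased mice and name none for the mt/hGRF mice. Single WT libraries of 8-week females and males were made on the 10X Genomics platform. The other 8 libraries were made by Drop-seq, a method that captures cells with barcoded beads in droplets, and came from WT 8-week females (n = 2) and males (n = 2), a WT virgin female group at 13 weeks (n = 1), WT lactating females at 13 weeks (n = 2) and 8-week mt/hGRF females (n = 1). The 8-week Drop-seq libraries with the labels WT-8wk-0324-female and WT-8wk-0324-male are called the first of their sex here, and the other female and male the second. In mt/hGRF mice a metallothionein promoter drives human growth hormone releasing factor in many tissues, so pituicytes are not the only cells exposed. Per the study's methods, each 8-week Drop-seq library, the mt/hGRF one included, pooled 2 mice, and 1 mouse gave the virgin library. P-values measure the spread between libraries. In comparisons between classes of barcodes the library was a block, so there they measure how the class difference varied between libraries. With 2 libraries a gene's own spread is barely known and is mainly borrowed from the other genes. The cells were released for 1 min in an enzyme-free buffer and passed through a 40 μm strainer, and only cells that came free under these conditions could be counted.

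Pituicytes arise from the infundibulum, an outgrowth of the floor of the hypothalamus, and keep the transcription factors Rax and Nkx2-1 of that region. They surround the axon endings from which hypothalamic neurons release oxytocin and vasopressin into the blood. They share many genes with astrocytes, among them transporters that clear glutamate and taurine, and they make growth factors and matrix for the vessels and axons of the posterior lobe.

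The kept barcodes numbered 807 to 5253 per library, with a median of 533 to 1236 UMIs each, and held 798791 to 4960260 UMIs per library. The pituicyte barcodes held 125521 UMIs in all, with a median of 868 UMIs (316 to 11660) and 487 genes. Libraries of the same platform shared few barcode sequences, at most 5 in a pair and none in 21 of 29 pairs. Pituicyte barcodes were deeper than the rest of their library by the largest margin in the first Drop-seq female (median 2098 against 709 UMIs) and second male (2269 against 713.5 UMIs) libraries. The virgin and the second lactating library held 23 and 22 pituicyte barcodes, and no other library held more than 9.

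The rule genes did not mark the same barcodes. Col25a1, a collagen with a membrane anchor, had a UMI in 60 of 85 barcodes (70.6%). Scn7a, a sodium channel that senses sodium level, was seen in 51 (60%). Cldn10, a claudin of tight junctions, and Col13a1, another membrane collagen, were each seen in 50 (58.8%). The transcription factors were sparser, with Rax in 18 barcodes (21.2%) and Nkx2-1 in 17 (20%). The most frequent pair was Scn7a with Col25a1, in 39 barcodes, followed by Col25a1 with Cldn10 and Cldn10 with Col13a1, in 33 each, while Rax and Nkx2-1 met in 6. Cldn10 was also uneven in amount: 3 barcodes with 47, 43 and 21 UMIs held 48.7% of its 228 UMIs. The rule genes lie on different chromosomes or far apart, for example Scn7a at chr2:66673425-66784914 (minus strand) and Cldn10 at chr14:118787908-118875489 (plus strand, GRCm38).

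In number of rule genes, 38 barcodes held 2, 27 held 3, 13 held 4, 5 held 5 and 2 held all 6. Just outside the limit, 362 barcodes held 1 rule gene, and 10 were removed by an excluded gene. As a description of that edge, Tbx3os1 had a UMI in 1.66% of the barcodes with 1 rule gene, in 44.7% of those with 2 and in 55.3% of those with 3 or more. Ptn had one in 21.0%, 65.8% and 80.9% of them, at a similar mean depth of 1462, 1501 and 1457 UMIs per barcode. Hormone transcripts made up 1826, 1918 and 823 of every 10000 UMIs in the same 3 sets. A single barcode of the 10X Genomics female library supplied 7020 of the hormone UMIs in the set with 2 rule genes, and without it the value there was 864.

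The share of pituicyte barcodes was below 1% in every library. It was 0.555% in the 10X Genomics female library (95% exact binomial interval 0.254 to 1.05%), and 0.496% (0.135 to 1.26%) and 0.326% (0.0890 to 0.833%) in the first and second Drop-seq females. In the males the values in the same order were 0.311% (0.101 to 0.723%), 0.361% (0.0744 to 1.05%) and 0.206% (0.0561 to 0.527%). Each female library lay above the male library of the same platform and number, but the 2 groups overlapped. The mean was 0.459% ± 0.119 (SD, n = 3) in females and 0.292% ± 0.0789 (SD, n = 3) in males, a difference of 0.167 percentage points (two-sided exact permutation test, p = 0.2, where the smallest p this design allows is 0.1). With every barcode thinned to 300 UMIs, in a single random draw, the difference was 0.0360 percentage points (p = 0.7, exact permutation test). In the first Drop-seq pair the male share was then the higher, 0.240% against 0.124%, which is 2 barcodes against 1.

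At 13 weeks the virgin library had the highest share of the series, 0.634% (0.402 to 0.950%), against 0.265% (0.107 to 0.546%) and 0.419% (0.263 to 0.633%) in the lactating libraries. The intervals overlapped, and with 1 virgin library the shares were not tested. The mt/hGRF library had the lowest share, 0.145% (0.0394 to 0.370%, 4 barcodes). These intervals cover counting error only. A share depends on how many pituicytes survived dissociation and on how deeply each barcode was read, and these cannot be told apart here. When every barcode was thinned to 300 UMIs, 41 barcodes passed the rule, and the shares ran from 0% (second Drop-seq male) to 0.469% (virgin).

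**Figure D1:**
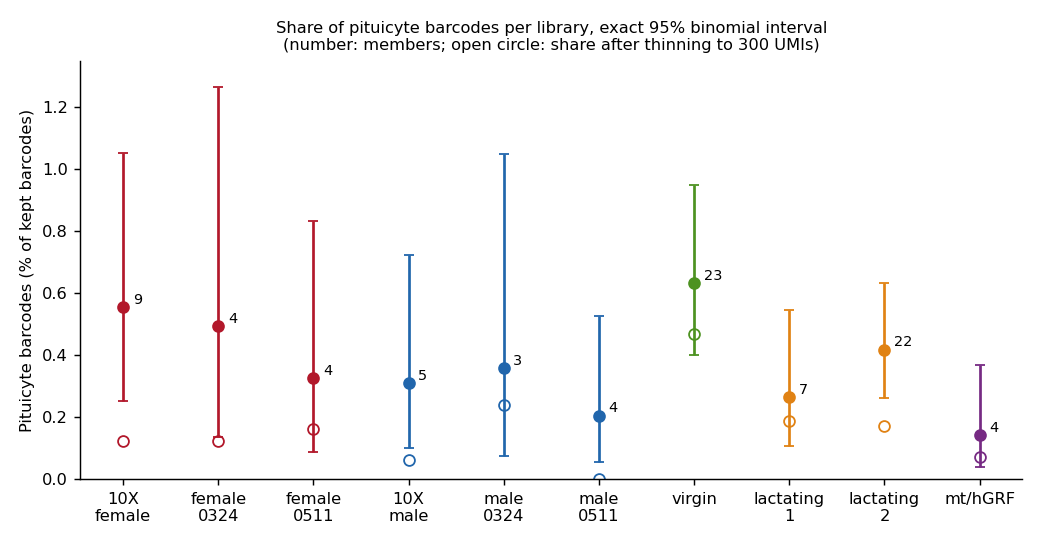
Share of kept barcodes that met the pituicyte rule (vertical axis, percent) in each of the 10 libraries (horizontal axis), with 95% exact binomial intervals as error bars, the number of pituicyte barcodes beside each point, and the share after thinning to 300 UMIs as open circles. All shares lie below 1%, from 0.145% in the mt/hGRF library to 0.634% in the virgin library, and most intervals overlap.

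Genes outside the rule were compared between pituicyte barcodes and the remaining kept barcodes, with UMIs summed per library and class and the library as the replicate. Only the virgin and second lactating libraries held at least 10 pituicyte barcodes, and this comparison rests on them. Of 10181 genes tested, 183 passed at an adjusted p of 0.05 (edgeR quasi-likelihood test, Benjamini-Hochberg), which is 1.8% of genes: 74 were higher in pituicyte barcodes (0.727%) and 109 lower (1.07%). When the sums were scaled by library totals in place of TMM, which moved the median log2 difference over all genes from -0.79 to 0.20, the split was 140 higher (1.38%) and 18 lower (0.177%). All 74 higher calls and 18 of the 109 lower calls passed under both scalings. The expression filter compared levels per sum, so genes rare in the other barcodes could enter the test through the pituicyte sums alone. With no filter other than 1 UMI in 2 sums, 47 genes were higher and 103 lower of 22492 tested. In all, 9 pituicyte barcodes also met a gate for Sox2 or stromal cells, 6 of them in these libraries, and leaving these out lowered the count from 183 to 87, with 28 higher in place of 74. Of the genes described below, Slc1a3, Id4, Aldoc, Six3, Nfib, Pcdh9, Dio2, Fgfr1, Igfbp5, Htra1, Ntrk2, Mia, Tshb and Syt1 then lost the call in 2 libraries and Lhx2 was not tested, while Ptn, Tbx3, Tbx3os1, Fgf10, Otx2, Gja1 and Vegfa kept it.

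A second fit took all 10 libraries, scaled by library totals, a choice made after the data were seen. It called 624 of 9676 genes (6.45%), 515 higher (5.32%) and 109 lower (1.13%). Of the 74 genes higher in the 2-library fit, 71 were tested and all were called. Of the 109 lower genes, 106 were tested and 35 were called. The libraries of the first fit are part of the second, so the second is not independent. Under TMM, 213 genes were higher (2.2%) and 4144 lower (42.8%) around a median log2 difference of -1.23, against 0.22 with library totals, and DESeq2 with its own size factors called 697 higher and 71 lower. The number of lower calls in 10 libraries thus depends on the scaling. Of the genes tested, 7 (0.0723%) were called and higher in each of the 10 libraries. They were Tbx3, Ptn, Pcdh9, Nfib, Dtna, Cacna2d2 and Ntrk2. For Tbx3, which is rare in the other barcodes, 1 UMI in a library was enough for this.

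Ptn, which encodes the secreted growth factor pleiotrophin, had UMIs in 63 of 85 pituicyte barcodes (74.1%), against 6.53% of the other barcodes. After thinning to 300 UMIs the shares were 52.9% and 2.34%. Per 10000 UMIs, its level in pituicyte barcodes was 17.0, 18.4 and 9.06 in the 8-week females (10X Genomics, first and second Drop-seq) and 8.00, 38.0 and 4.38 in the males in that order. It was 89.8 in the virgin, 11.5 and 37.1 in the lactating and 5.5 in the mt/hGRF library. In the virgin library 2 barcodes with 71 and 57 Ptn UMIs, both of which also met the Sox2 gate, held 128 of 229, and without them the level was 52.4. The virgin library stood highest and the second Drop-seq male library lowest, yet every value lay above the range of the other barcodes, 0.561 to 1.37. The log2 difference was 4.79 ± 0.46 (SE) in 2 libraries (adjusted p = 4.49e-22, edgeR) and 4.22 ± 0.36 in 10 (adjusted p = 2.57e-28). Ptn lies at chr6:36714929-36810220 on the minus strand (GRCm38).

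Tbx3, a T-box transcription factor of the developing infundibulum, and its antisense transcript Tbx3os1 stood out together. Tbx3 was seen in 28 pituicyte barcodes (32.9%) and in 0.459% of the others. Tbx3os1 was seen in 43 (50.6%) and in 0.135% of the others. Both had UMIs in 18 barcodes. The level of Tbx3 in pituicyte barcodes was 1.58, 2.29 and 11.3 per 10000 UMIs in the 8-week females, 4.80, 3.04 and 1.1 in the males, 2.75 in the virgin, 4.95 and 3.53 in the lactating and 0.917 in the mt/hGRF library. No library overlapped the other barcodes, which ranged from 0.0182 to 0.0825. The levels rest on 4, 2 and 5 Tbx3 UMIs in the 8-week females and 3, 2 and 1 in the males. The virgin library held 7, the lactating libraries 3 and 8 and the mt/hGRF library 1. In sums of this size 1 UMI was enough to lie above that range. The log2 difference was 5.37 ± 0.97 in 2 libraries (adjusted p = 1.06e-05, edgeR) and 5.88 ± 0.38 in 10 (adjusted p = 1.7e-44).

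For Tbx3os1, the pituicyte level was 6.33, 0 and 13.6 per 10000 UMIs in the 8-week females and 6.40, 7.59 and 2.19 in the males. It was 7.06 in the virgin, 26.4 and 10.1 in the lactating and 4.58 in the mt/hGRF library. The first Drop-seq female library, with 4 pituicyte barcodes, was the single library with none. In the other barcodes the level was at most 0.0385 in any library, and the log2 difference in 2 libraries was 7.37 ± 0.70 (adjusted p = 3.61e-22, edgeR). Tbx3 (chr5:119670669-119684724, plus strand) and Tbx3os1 (chr5:119570130-119671365, minus strand, annotated as antisense) overlap by 697 bases in GENCODE vM21. The Drop-seq reads were counted on the annotated strand, and the strand setting of the 10X Genomics counts is not given in the sources used here.

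**Figure D2:**
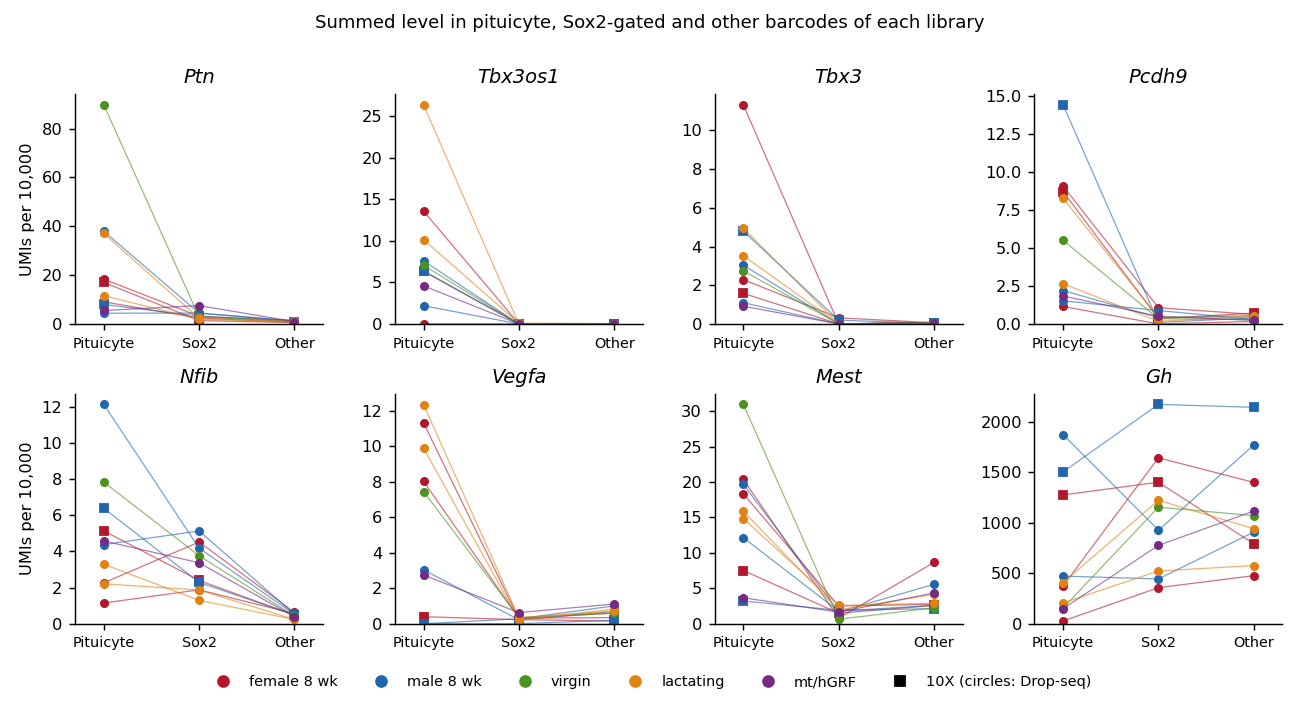
Levels of selected genes (UMIs per 10000 UMIs, linear axes that start at 0) in pituicyte barcodes, Sox2-gated barcodes and the other kept barcodes, with 1 point for each library and lines joining the classes of a library. Ptn, Tbx3 and Pcdh9 lie higher in pituicyte than in other barcodes in all 10 libraries, and Tbx3os1 in 9 of 10.

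Other regulators of the hypothalamic floor were also higher. The gene lists used from here on were chosen with earlier results of these data known. Counts of their members are thus a description and do not test what these barcodes are. Of 24 genes listed as hypothalamic and infundibular regulators, 15 were tested in the 2-library fit and 6 were higher, none lower (median log2 difference 2.09, against -0.79 over all genes, of which 0.727% were higher). The 10-library fit called 13 of 18 higher and none lower (median 2.64, against 0.22, with 5.32% of all genes higher). With TMM it called 9 higher and 3 lower, where 2.2% of all genes were higher and 42.8% lower. Fgf10, a secreted signal of the infundibulum, was seen in 18 pituicyte barcodes (21.2%) and in 0.153% of the others, with a log2 difference of 6.35 ± 0.98 in 2 libraries (adjusted p = 4.71e-08, edgeR). Otx2 (11 barcodes, log2 difference 4.69 ± 1.12) and Six3 (25 barcodes, 2.09 ± 0.48), both transcription factors of the anterior neural plate, also passed. Lhx2, a LIM-homeobox factor needed for the posterior lobe, had UMIs in 9 pituicyte barcodes (10.6%) and in 0.0809% of the others, but in the virgin and lactating libraries alone. Of the members of this list, 8 had no UMI in any pituicyte barcode, among them Hesx1, Hes5 and Sox3. The summed list reached 14.9 to 38.5 UMIs per 10000 in pituicyte barcodes and 3.64 to 6.50 in the others, with no overlap.

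Astroglial genes were mixed. Of 30 in the list, 23 were tested in 2 libraries and 5 were higher: Ptn, Slc1a3, Gja1, Id4 and Aldoc. None was lower. The median log2 difference of the list was 1.11, against -0.79 over all genes, of which 0.727% were higher. The 10-library fit called 11 of 22 higher and 1, Apoe, lower (median 1.93, against 0.22 over all genes, with 5.32% higher). With TMM 9 were higher and 3 lower, where 42.8% of all genes were lower. Slc1a3, the glutamate transporter GLAST, was seen in 35 pituicyte barcodes (41.2%) and in 1.17% of the others. Its level ranged from 0 to 13.2 per 10000 UMIs with a median of 4.40 and lay above the others, at 0.0464 to 0.233, in 9 of 10 libraries. The log2 difference was 3.43 ± 0.76 in 2 libraries (adjusted p = 0.000865, edgeR).

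Gja1, the gap junction protein connexin 43, was seen in 20 barcodes (23.5%), with a log2 difference of 4.80 ± 0.95 in 2 libraries. Id4, an inhibitor of bHLH factors, was seen in 27 barcodes (31.8%), with a difference of 4.10 ± 0.83. Both passed with edgeR (adjusted p = 9.37e-05 and 0.000163). By contrast, the intermediate filament gene Gfap, often used to stain astrocytes, had no UMI in any pituicyte barcode, which allows up to 0.239 per 10000 UMIs. Kcnj10, Fabp7, Gpr37l1 and Slc6a11 were also at 0. Vim was seen in 6 barcodes (7.06%) and S100b in 1 (1.18%), so the usual stains for these cells were sparse or missing as mRNA. Apoe, a lipid carrier that macrophages make in quantity, ran from 3.29 to 31.0 per 10000 UMIs in pituicyte barcodes and from 10.6 to 40.7 in the others, and its 10-library log2 difference was -1.10 ± 0.33 (adjusted p = 0.0192, edgeR). That call was lost without the mt/hGRF or the first lactating library, without the hormone-rich barcodes and with the Drop-seq libraries alone. Its UMIs were spread the other way, in 55.3% of pituicyte barcodes against 10.7% of the others, or 28.2% against 6.36% after thinning. The other barcodes include the macrophage barcodes with C1qa or C1qb that the rule kept out of the pituicyte set.

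Among 26 local signals and receptors, 4 of the 13 tested in 2 libraries were higher and none lower (median log2 difference 1.97, against -0.79 over all genes, of which 0.727% were higher). The 10-library fit called 10 of 18 higher and none lower (median 2.48, against 0.22, with 5.32% of all genes higher). With TMM 7 were higher and 1 lower, where 2.2% of all genes were higher and 42.8% lower. The summed list lay above the other barcodes in all 10 libraries. It lay above the Sox2-gated barcodes, described below, in 4 of 10, with medians of 31.0 and 41.9 per 10000 UMIs. Vegfa, the main growth factor of vessels, was seen in 39 pituicyte barcodes (45.9%) and in 5.04% of the others. Its level was 0.395, 8.03 and 11.3 per 10000 UMIs in the 8-week females, 0, 3.04 and 0 in the males, 7.45 in the virgin, 9.89 and 12.4 in the lactating and 2.75 in the mt/hGRF library. Both 10X Genomics libraries were low, as was the second Drop-seq male, and the level lay above the other barcodes in 8 of 10 libraries. The log2 difference was 2.92 ± 0.40 in 2 libraries (adjusted p = 4.49e-10, edgeR).

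Dio2, the enzyme that turns thyroxine into its active form, was seen in 13 barcodes and differed by 2.96 ± 0.75 on the log2 scale in 2 libraries (adjusted p = 0.00715, edgeR). Fgfr1, a receptor for fibroblast growth factors, differed by 3.45 ± 0.76 (adjusted p = 0.000865). Igfbp5, a binding protein for insulin-like growth factors, was higher by 1.60 ± 0.38 in 2 libraries (adjusted p = 0.00247), and its 10-library difference of 1.92 fell to 0.35 with TMM (adjusted p = 0.434). Slc6a6, the taurine transporter, was called in 10 libraries (log2 difference 1.93 ± 0.38, adjusted p = 2.66e-05, edgeR) and not in 2 (1.47 ± 0.62, adjusted p = 0.319). Its 10-library call was lost with TMM. The vasopressin receptor Avpr1a and the purine receptor P2ry1 had no UMI.

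Of 23 matrix and basement membrane genes, 10 were tested in 2 libraries and 2 were higher, Col23a1, a membrane collagen (16 barcodes, log2 difference 6.75 ± 0.98), and Timp3, an inhibitor of matrix proteases (26 barcodes, 3.39 ± 0.48). The median log2 difference was 0.51, against -0.79 over all genes, of which 0.727% were higher. In 10 libraries 3 of 13 were higher, Col4a5 being the third (median 1.14, against 0.22, with 5.32% of all genes higher). With TMM 3 were higher and 2, Col11a1 and Sparc, lower, where 2.2% of all genes were higher and 42.8% lower. Col4a1 and Col4a2, collagens of basement membrane, were not called. Of 19 lipid and sterol synthesis genes, none of 14 was called in 2 libraries, and in 10 libraries 1 of 15, Srebf1, a regulator of fatty acid synthesis, was higher (log2 difference 2.69 ± 0.41, adjusted p = 5.4e-09, edgeR). That share of the list is near the 5.32% of all genes called higher there.

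The genes with the largest differences among those called included several of less studied role in this cell. Those rare in the other barcodes could enter the test through the pituicyte sums alone. Fndc3c1 (chrX:106420041-106485401, minus strand) was seen in 19 pituicyte barcodes (22.4%) and in 0.0719% of the others. Its pituicyte level ran from 0 in the 10X Genomics male, second Drop-seq male and mt/hGRF libraries to 12.2 in the first Drop-seq male. The chloride channel gene Ano1 was seen in 17 barcodes (20%, against 0.144% of the others), and the protease Htra1 in 14 (16.5%, against 0.346%). A further pair of leading genes were transporters or enzymes of small molecules: Slc7a10, which carries serine and glycine, in 7 barcodes of the virgin and second lactating libraries, and Car14, a carbonic anhydrase, in 10 barcodes. Pcdh9, a protocadherin of cell contacts, ran from 1.15 to 14.4 per 10000 UMIs and lay above the other barcodes in all 10 libraries (log2 difference 2.43 ± 0.58 in 2 libraries, adjusted p = 0.00309, edgeR).

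Oxytocin mRNA was called higher, and 1 barcode carried most of it. Oxt had 73 UMIs in 7 pituicyte barcodes (8.24%), and 52 of them (71.2%) lay in a single barcode of the second lactating library with 4131 UMIs. That barcode also met the Sox2 gate, and held 34 of the 41 Avp (vasopressin) UMIs, all 6 rule genes and 36 Ptn UMIs. A further barcode of that library, with 660 UMIs, held 7 of each hormone. The other 5 lay in the 10X Genomics female and virgin libraries and held 1 to 6 Oxt UMIs and no Avp. Among the other kept barcodes, 0.553% held Oxt and 0.157% Avp. Oxt and Avp lie 3565 bases apart on chromosome 2. Over the 11 genes of hypothalamic axons, Oxt alone was higher in the 2-library fit and Cartpt, Nefl and Nefm were at 0. In that fit 0.727% of all genes were higher and 1.07% lower. The summed list lay above the other barcodes in 2 of 10 libraries. Syt1, a synaptic vesicle protein, was lower in 2 libraries with TMM but not with library totals, with DESeq2 or without the gated barcodes, and its call in 10 libraries was also lost under most alternatives. Whether Oxt mRNA came from the same cell as the rule genes was not tested.

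Hormone transcripts were present in nearly every pituicyte barcode but at a lower share. Gh had a UMI in 98.8% of them and in 99.5% of the others. The median share of hormone UMIs was lower in pituicyte barcodes than in the others in 9 of 10 libraries, the exception being the 10X Genomics male library (18.8% against 14.6%). On summed UMIs, pituicyte barcodes lay above the others in the 10X Genomics female (3267 against 1812 per 10000) and first Drop-seq male (2754 against 2315) libraries. The median was 2.63% against 13.2% in the virgin and 7.79% against 16.6% in the second lactating library. In 10 libraries 3 of 7 hormone genes were lower: Gh (log2 difference -1.44 ± 0.29), Prl (-1.70 ± 0.31) and Pomc (-1.19 ± 0.31), where 1.13% of all genes were lower. With TMM all 7 were lower, where 42.8% of all genes were. In 2 libraries Pomc, Cga and Tshb were lower, with 1.07% of all genes lower, and with library totals Cga alone, with 0.177% lower. The rule kept barcodes with Ghrhr or Gnrhr out of the pituicyte set but not out of the others. This choice could lower hormone levels in the pituicyte set, and its part in them was not tested. The 5 excluded genes together removed 10 barcodes that held at least 2 rule genes. In 8 pituicyte barcodes hormones took more than 20% of UMIs, and the highest share was 60.9%. The 14 pituicyte barcodes with a share above the median of the other barcodes of their library are called hormone-rich.

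Markers of other cell types were counted over their whole lists. Of 6 macrophage genes, 5 had no UMI in pituicyte barcodes and all 6 were lower in 10 libraries, where 1.13% of all genes were lower. Leaving out barcodes with C1qa or C1qb could lower these genes too, and its part was not tested. All 5 pericyte genes and all 4 T and NK cell genes were at 0. The 5 endothelial genes summed to at most 2.27 per 10000 UMIs in any library. The other barcodes ranged from 0.118 to 0.368, and pituicyte barcodes lay above them in 4 of 10 libraries, each of which held 1 such UMI. The rule had also left out barcodes with the endothelial gene Pecam1. Red blood cell genes summed to 2.19 to 15 per 10000 UMIs, against 76.9 to 629 in the other barcodes. The 5 melanotrope genes, Pomc among them, summed to 16.5 to 1212, against 153 to 763 in the others, and lay above them in 3 of 10 libraries. The 5 epithelial genes summed to 0 to 19.3, against 3.09 to 5.83, and lay above the others in 4 of 10 libraries. Of 6 stromal genes, Col1a1, Lum and Pdgfra were at 0, and Col3a1 and Dcn were seen in 1 and 2 pituicyte barcodes. Col1a2 had 42 UMIs in 24 of them (28.2%, against 29.2% of the others). The list summed to 0.917 to 8.82 per 10000 UMIs in pituicyte barcodes and 2.27 to 10.6 in the others. It was above the others in 2 of 10 libraries and above the Sox2-gated barcodes in 6 of 10. The part of stromal RNA in the results was not tested.

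**Figure D3:**
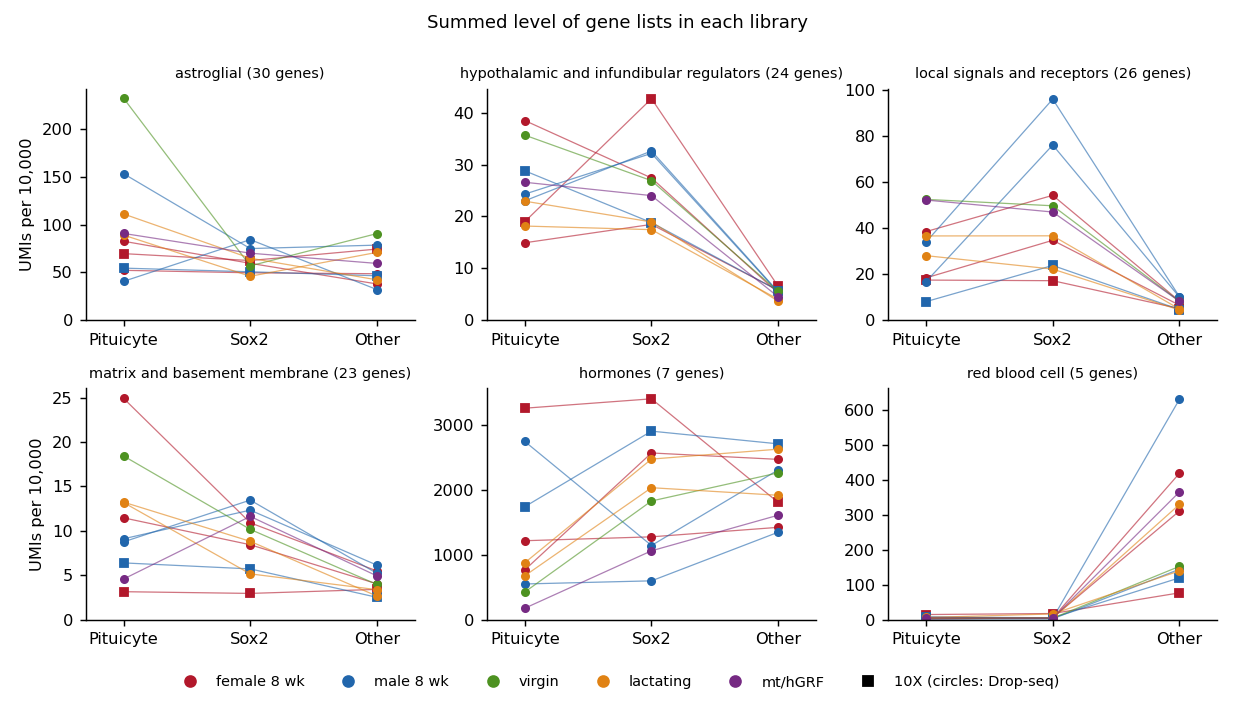
Summed level of 6 gene lists (UMIs per 10000 UMIs, linear axes that start at 0) in pituicyte, Sox2-gated and other barcodes, with lines joining the classes of 1 library. The hypothalamic list, drawn with Sox2, separates pituicyte from other barcodes in all 10 libraries, and the red blood cell list is low in pituicyte and Sox2-gated barcodes.

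The nearest non-endocrine class was taken as 369 barcodes with UMIs of at least 2 of Sox2, Cyp2f2, Aldh1a2, Lcn2, Cpxm2 and Mia, which mark the Sox2 stem and support cells of the anterior lobe. In the virgin and second lactating libraries 60 of 1109 genes differed (5.41%, edgeR), 37 higher (3.34%) and 23 lower (2.07%) in pituicyte barcodes. The split was 56 and 11 with library totals, and 6 and 12 of 228 tested with DESeq2. In 10 libraries 157 of 905 differed (17.3%), 94 higher (10.4%) and 63 lower (6.96%), and with TMM 42 higher (4.64%) and 197 lower (21.8%). In all, 10 genes (1.1%) were called and higher in every library, and these included Tbx3, Cacna2d2, Pcdh9 and Mest as well as Ddx5, Sfpq, Srrm2, Nktr, Pnisr and Rbm5. With TMM none of these last 6 was called, and the first 4 were.

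Tbx3 was at 0 in the Sox2-gated barcodes of 8 libraries and at most 0.313 per 10000 UMIs in the remainder, below pituicyte barcodes in all 10 (log2 difference 5.65 ± 0.71, adjusted p = 1.78e-12, edgeR, 10 libraries). Tbx3os1 was at 0 there in 9 libraries. Fndc3c1 was at 0 there in all 10, and its pituicyte level of 3.35 per 10000 UMIs over all libraries was at least 85.5-fold higher, taking 3 counts over the class as the limit. Mest, an imprinted gene first found in mesoderm, ran from 3.20 to 31.0 in pituicyte and from 0.627 to 2.58 in Sox2-gated barcodes with no overlap (2.97 ± 0.39, adjusted p = 9.13e-12). Vegfa differed by 3.86 ± 0.50 (adjusted p = 9.13e-12). Scube1, a secreted protein seen in 26 pituicyte barcodes (30.6%), was among the leading genes in 2 libraries. Maf, a bZIP transcription factor, differed by 4.21 ± 0.69 (adjusted p = 9.41e-08).

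Of 13 astroglial genes tested between these classes in 10 libraries, 6 were higher in pituicyte barcodes, Gja1 among them, and 3 lower. Over all genes 10.4% were higher and 6.96% lower. With TMM 4 were higher and 4 lower, where 4.64% and 21.8% of all genes were, and Gja1 was not called. The summed list lay above the Sox2-gated level in 9 of 10 libraries. Several members did not separate these classes or went the other way. Ptn (2.5 ± 0.40), Slc1a3 (2.93 ± 0.44), Id4 (1.99 ± 0.48) and Bcan (3.21 ± 0.61), a proteoglycan of brain matrix, were higher in pituicyte barcodes in 10 libraries. Apoe was also higher here (1.18 ± 0.38, adjusted p = 0.0153, edgeR), though not with TMM (adjusted p = 0.148). Clu, Mt3 and Glul, the enzyme glutamine synthetase, were lower, with Glul at -1.81 ± 0.46 (adjusted p = 0.00141). Nfib, called against the other barcodes, was not called here (0.68 ± 0.38, adjusted p = 0.193), and neither was Aldoc (-0.86 ± 0.42, adjusted p = 0.133), which was lower with TMM (-1.31, adjusted p = 0.0155). Nfia, a related factor, was lower (-2.05 ± 0.48, adjusted p = 0.000545) and lay below the Sox2-gated level in all 10 libraries. Igfbp5 was lower as well (-1.65 ± 0.38), at 0 to 28.4 per 10000 UMIs against 10.3 to 74.5. Without the hormone-rich barcodes Glul, Mt3 and Igfbp5 lost these calls. Ednrb, an endothelin receptor, had UMIs in 2 pituicyte barcodes.

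The summed hypothalamic list includes Sox2, which chose the Sox2-gated class. Without Sox2 it had a median of 22.9 per 10000 UMIs in pituicyte and 20.6 in Sox2-gated barcodes, with overlapping ranges and pituicyte barcodes above in 6 of 10 libraries. The Sox2-gate genes themselves were not absent from pituicyte barcodes: Sox2 was seen in 14 and Mia in 19. Against the other kept barcodes all 6 were called higher in 10 libraries, 1 of them (Cpxm2) with TMM, and Mia alone in 2 libraries. Over all genes 5.32%, 2.2% and 0.727% were higher in these fits. With library totals in 2 libraries Sox2 was called higher as well as Mia. Their sum ran from 0 to 61.4 per 10000 UMIs in pituicyte barcodes (median 3.99) and from 1.22 to 4.14 in the others, and was higher in 7 of 10 libraries. Without the gated barcodes none of the 6 was called in 10 libraries, but those barcodes were chosen by these same genes, so a lower level follows from the choice. A pair of barcodes held 52 and 60 Mia UMIs with 3 and 4 of Sox2, at 9703 and 6851 UMIs, in the mt/hGRF and virgin libraries. In all, 9 pituicyte barcodes also met the Sox2 gate. Whether these hold a single cell was not tested. Against the 268 stromal-gated barcodes, 11 of 174 genes differed in 2 libraries (6.32%, edgeR). The 3 higher genes (1.72%) were Ptn, Tbx3os1 and Vegfa, and the 8 lower (4.6%) were Apod, Mgp, Igfbp7, Fam46a, the hormone subunit gene Cga and the secretory granule genes Scg2, Scg5 and Chgb. With library totals 3 of these, Apod, Mgp and Scg5, were called lower. No gene was called in 2 libraries when either the hormone-rich or the gated barcodes were left out. In 10 libraries 77 of 637 differed (12.1%), against 129 of 422 without the hormone-rich and 129 of 418 without the gated barcodes.

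The pituicyte barcodes varied among themselves. Between the most frequent junction and channel genes of the rule, 27 barcodes held Cldn10 without Scn7a, 28 Scn7a without Cldn10, 23 both and 7 neither, at median depths of 837, 717, 1202 and 868 UMIs. As a description, with no test, Tbx3os1 was seen in 8 of 27 barcodes with Cldn10 alone, in 17 of 28 with Scn7a alone and in 13 of 23 with both. Vegfa was seen in 8, 15 and 12 of them. Gja1 went the other way, with 10, 2 and 5, as did Apoe, with 19, 12 and 15, and Mia, with 10, 4 and 5. Fndc3c1 was seen in 2, 3 and 12, so mostly where both genes were counted. The barcodes of these sets, in the order first given, come from 9, 7, 9 and 4 libraries. Deeper barcodes had more chance to hold both genes. The libraries also differed: Cldn10 was seen in 18 of 23 virgin and 7 of 22 second lactating barcodes, and Scn7a in 13 and 15. Tbx3os1 was seen in 9 and 14 of these barcodes and Vegfa in 11 and 14. Gja1 was seen in 8 and 3, Apoe in 15 and 10 and Mia in 8 and 3. Set and library were not separated, so these counts do not show kinds of pituicyte.

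**Figure D4:**
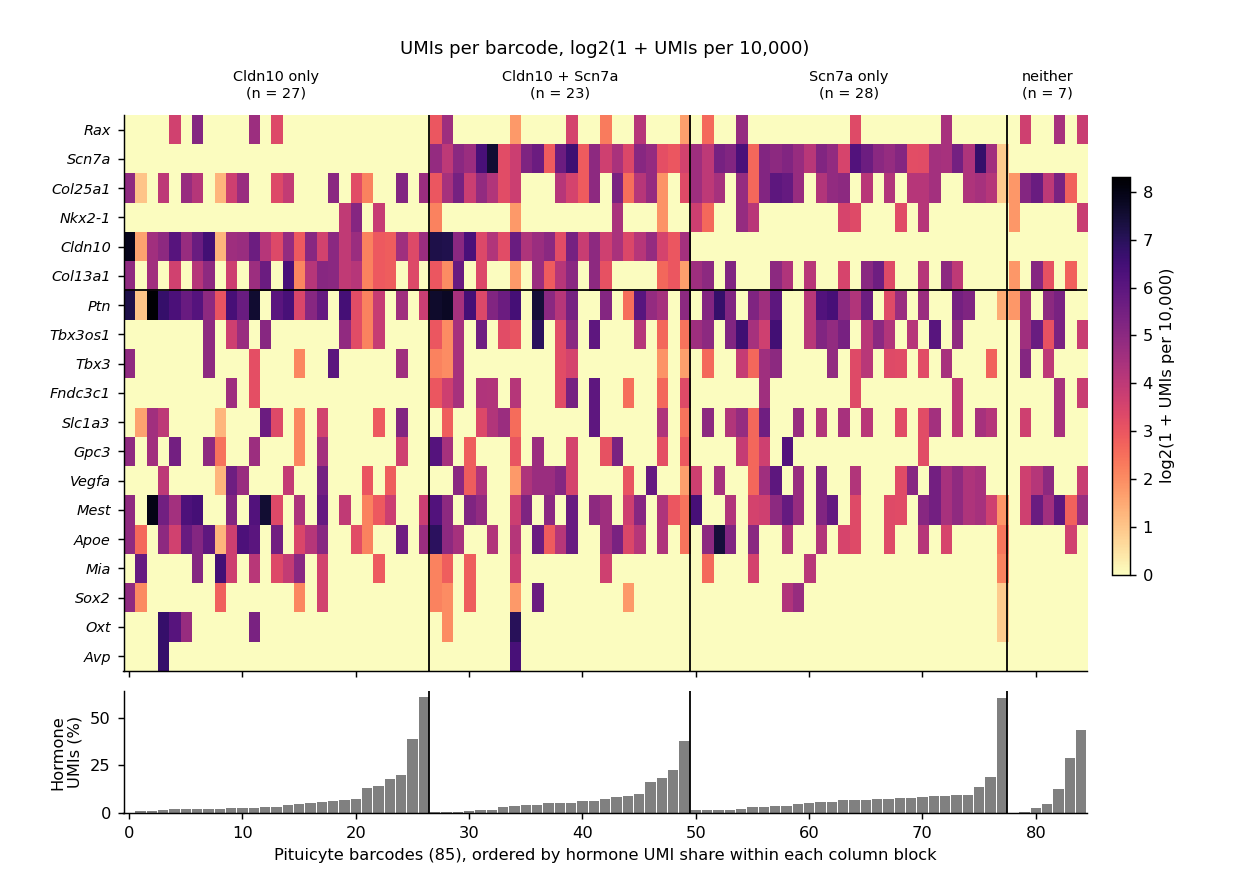
Level of the rule genes (top rows) and of selected other genes in each of the 85 pituicyte barcodes (columns), shaded on a log2 scale of 1 + UMIs per 10000 UMIs, with the hormone share of UMIs (percent) as bars below. Columns are grouped by whether Cldn10 and Scn7a were seen (27, 23, 28 and 7 barcodes) and ordered by hormone share within each group, and Rax, Nkx2-1, Oxt and Avp fill few columns.

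Expression in pituicyte barcodes was then compared between conditions in all 10 libraries, each of which held at least 3 of them, with 177 genes abundant enough to test. The virgin and mt/hGRF groups are 1 library each, so their spread was taken from the other groups. No gene was called between females and males at 8 weeks, between lactating and virgin females or between mt/hGRF and WT 8-week females (0% each, edgeR with TMM), and 4, 5 and 15 genes had an unadjusted p under 0.05. DESeq2 also called 0 in each, with 2, 0 and 7 genes at an unadjusted p under 0.05. Simulated data of the size of the sex comparison were drawn with a spread fixed in advance, not estimated from these libraries. In them 52.4% of 4-fold and 100% of 16-fold changes were recovered among the genes tested, with 3 false calls. A 4-fold difference could thus go uncalled at this depth. Where the real spread is larger, so could a larger difference, and Xist, described next, was not called.

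Xist, the RNA of the inactive X chromosome, checked the sex labels. Its level in pituicyte barcodes was 41.9, 63.1 and 65.7 per 10000 UMIs in the 8-week females and 1.60, 0 and 11 in the males, with no overlap (log2 difference 3.62 ± 0.97, adjusted p = 0.282, edgeR). It passed when the second Drop-seq female or male was left out, as the single gene called. The Y-linked Eif2s3y was at 0 in every female library and at 8.00, 4.56 and 4.38 in the males.

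Between the virgin and lactating libraries, Ptn in pituicyte barcodes was 89.8 against 11.5 and 37.1 per 10000 UMIs, and the summed astroglial list was 233 against 89.1 and 111. With the gated barcodes left out (4 virgin, 0 and 2 lactating), Ptn was 75.9 against 11.5 and 24.4, and the list 198 against 89.1 and 64.7. Vegfa was 7.45 against 9.89 and 12.4. Neither gene was called, and the summed list was not tested. In the mt/hGRF library a single barcode supplied 9703 of the 10907 UMIs, so the levels of that library are mainly those of this barcode. It also met the Sox2 gate, with 52 Mia and 3 Sox2 UMIs. Its rule genes were Col25a1 (1 UMI) and Cldn10 (2 UMIs), and it held 1 Ptn UMI and none of Tbx3 or Tbx3os1. Whether it was a pituicyte was not tested. Without the hormone-rich barcodes 3 barcodes were left in the mt/hGRF library, of which that barcode held 9703 of 10453 UMIs. The 8 genes called in that fit thus set mainly 1 barcode against the other groups and are not described.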

How the data were processed

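The authors deposited raw UMI counts per gene symbol and barcode for 10 pituitary libraries. Per the authors' methods, Drop-seq reads were mapped to mm10 (STAR 2.5.2a in the submitters' processing notes), exonic reads on the annotated strand of Gencode vM13 were counted from unique alignments, and UMIs within an edit distance of 1 were merged. Cell Ranger gave the 10X Genomics counts, and its version and reference are not given in the sources used here. Gene coordinates are from GENCODE vM21 on GRCm38.

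Drop-seq barcodes with at least 300 UMIs and 100 to 4000 genes, and 10X Genomics barcodes with 201 to 2999 genes, were kept where the mitochondrial share was below 0.1 and the share of ribosomal pseudogenes below 0.01. No doublet caller was run. The study's cell annotation was not used here. UMIs were summed per library and class and tested with edgeR 4.0.16 in R 4.3.3 (quasi-likelihood, two-sided, Benjamini-Hochberg, threshold 0.05), with DESeq2 1.42.0 as an alternative. Classes needed at least 10 pituicyte barcodes per library as planned. Only 2 libraries reached that, so fits over all libraries with at least 3 were added after the data were seen. Standard errors are of the fitted log2 difference. Shares were tested over libraries with an exact permutation test in scipy 1.17.1. Simulated sums were drawn with a spread fixed in advance and not estimated from these data. In them edgeR recovered 8% of 4-fold and 46% of 16-fold changes with 2 libraries (0 false calls, 10190 genes), and 41% and 66% with 10 (6 false calls, 9686 genes).

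The pituicyte rule, the gates and the gene lists were chosen with earlier results of these data known. Genes are named as members of these lists, as rule genes, or as the 12 with the largest log2 difference in each direction among those called with the same sign in every library of the fit, leaving out pseudogenes and Gm and Rik names. Genes higher in each of the 10 libraries, the genes called in single alternatives, Xist and Eif2s3y were named after their values were seen. Alternatives were other scalings, no expression filter, stricter rules, thinning to 300 UMIs, and leaving out hormone-rich barcodes, gated barcodes, platforms or single libraries. The list of pituitary lineage factors, and the lipid list under TMM, are not reported here.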

Additional observations from a re-analysis of the deposited data

How the results depend on the processing

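In the fit that chose them, none of the genes with the largest differences changed direction under an alternative. Against the other barcodes, Mia in 2 libraries and Aldh1a2, Cyp2f2 and Lcn2 in 10, all called higher, did so without the gated barcodes. Those barcodes were chosen by these same genes. Mia also did so with at least 3 rule genes, and Lcn2 without the second Drop-seq male library. None of these values was called. Ifitm3, also called higher than in the other barcodes in 10 libraries, changed direction under an alternative too. The balance of higher and lower calls moved too: DESeq2 gave 56 higher and 160 lower against Sox2-gated barcodes in 10 libraries, where library totals gave 94 and 63. Of the values for the genes chosen as the largest differences, which leave out most list members, 1271 stayed on the same side of the threshold and 99 lost the call. Of these 99, 32 were against the other barcodes and 32 against stromal-gated barcodes in 2 libraries, and 28 against Sox2-gated barcodes in 10. With no filter Car14, Slc7a10, Abca8a, Htra1, Otx2, Mia and the macrophage gene Fcer1g lost the call against the other barcodes in 2 libraries. The count against the other barcodes (183 in 2 libraries) was 338 with at least 3 rule genes and 5 barcodes per library in place of 10, and 87 without gated barcodes. In 10 libraries (624) it was 4357 with TMM, 398 without gated barcodes, 289 without the virgin and second lactating libraries, and 385 to 614 with a library left out, lowest without the virgin one. The count against Sox2-gated barcodes (60 of 1109 tested) was 18 of 228 with DESeq2. In 10 libraries (157 of 905) it was 239 of 905 with TMM, 338 of 801 without gated barcodes and 92 of 754 with Drop-seq alone. It was 102 of 842 without the 2 large libraries and 97 to 181 with a library left out, lowest without the second lactating one. The count against stromal-gated barcodes (11 of 174) was 19 of 7707 with no filter. It was 34 of 124 with at least 3 rule genes and 5 barcodes per library, and 0 without hormone-rich or without gated barcodes. In 10 libraries (77 of 637) it was 152 of 12618 with no filter, 129 of 422 without hormone-rich and 129 of 418 without gated barcodes. It was 38 of 480 without the 2 large libraries and 46 to 96 with a library left out, lowest without the second lactating one. Without hormone-rich barcodes the sex count was 1 (Tpr) and the mt/hGRF count 8. With a library left out these were 0 to 1 for sex, 0 for lactation and 0 for mt/hGRF. With at least 3 rule genes the share was 0.386% in the virgin, 0.171% in the second lactating and 0% in the mt/hGRF library, and thinning gave 0.171% in the second lactating one. The female minus male difference in share was 0.119 to 0.233 percentage points with a library left out, and 0.0360 after thinning to 300 UMIs. The causes of these shifts were not tested.

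The 10X Genomics, first and second Drop-seq libraries at 8 weeks carry the same label in both sexes. With the label as a replicate block, the share difference of 0.167 percentage points gave p = 0.25 (exact permutation test, the smallest p this pairing allows), and 0 of 50 genes were called by edgeR, 2 at an unadjusted p under 0.05. The deviations of same-labelled libraries from the mean of their sex correlated at 0.49 (10X Genomics), 0.02 (first Drop-seq) and 0.47 (second Drop-seq) over 98 genes. Libraries of unlike label were not correlated for reference, so whether the labels pair the samples was not settled. The main comparisons of the sexes treated the libraries as unpaired. The 2-library fits could not be made with a library left out, nor the lactation and mt/hGRF fits without their single library, nor the stromal and condition fits with at least 20 pituicyte barcodes per library, nor the condition fits with at least 3 rule genes and 5 barcodes. The condition fits rest on 3 to 23 pituicyte barcodes per library.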
